A study of Rattus norvegicus and Mus musculus with 251 samples.

Results

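Gene expression in the prefrontal cortex (PFC) of mice was compared between 2 weeks and 24 h after the end of morphine drinking, using every gene of the deposited mouse count table. The libraries were chosen by their treatment label: 7 labelled Mor + 2W (3 females and 4 males) and 9 labelled Mor + 24h (4 females and 5 males), which makes 16 of the 251 libraries of the series. All mice were of the inbred strain C57BL6J, and the labels give no age and no dose. The design text says that mice drank a morphine or a saline solution and were killed at different times after drinking. The other PFC groups, used as reference levels, were 6 libraries from mice given saline (Sal) and 8 labelled Chronic mor. Each library was made from total RNA of 0.5 mm tissue punches and sequenced as read pairs of 75 bases. The labels call the cell type neuron. The libraries nevertheless held glial RNA in both groups: 10 astrocyte marker genes summed to 3798 to 5481 CPM (counts scaled to library size) at 24 h and 4133 to 5913 at 2 weeks, and 11 oligodendrocyte markers summed to 3208 to 7110 and 4059 to 8254. In such tissue, fewer cells of a type and less RNA per cell cannot be told apart. The labels do not say that the libraries came from separate animals, so p-values measure the spread between these libraries.

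The 24 h libraries held 25696356 to 37253932 counts in genes and 18166 to 21142 genes with at least 1 count. Of the 2-week libraries, number 10, from a female, stood apart with 5182601 counts, 10563 genes with a count and 21.1% of its counts listed as not aligned, so each result is also given without it where that changes the call. The other 6 held 26637146 to 35432140 counts and 19092 to 20190 genes. Between the groups, the differences in total counts (exact two-sided permutation test, p = 0.236), genes with a count (exact permutation p = 0.409) and share of counts outside genes (exact permutation p = 0.533) were within the spread of the libraries; adjusted over the 3 measures each p was 0.533. One chronic library, number 27, labelled female, showed sex-linked transcripts that go against its label, and leaving it out gave 27 called genes, 26 of them shared with the full set.

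Immediate early genes are switched on within minutes when a neuron fires or a cell receives a growth signal, without any new protein being needed first. Many encode transcription factors, such as the AP-1 proteins of the Fos and Jun families, the Egr zinc finger proteins and the Nr4a nuclear receptors. Others encode phosphatases that shut the signal down, or proteins that act at the synapse, such as Arc. In cortex their RNA level is widely read as a record of recent activity. A list of 61 such activity-regulated genes, sorted by role, was set beside all other genes. The list was chosen with earlier results of these data known, so counts of its called members are a description and not a test.

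At 2 weeks, early genes of several families stood higher than at 24 h. Of 17966 genes tested with edgeR's quasi-likelihood test, 27 were called at a Benjamini-Hochberg adjusted p under 0.05 (0.15%), 15 of them higher at 2 weeks (0.0835%) and 12 lower (0.0668%). Of the 15 higher genes, 13 were on the activity-regulated list, and no listed gene was called lower. DESeq2 called 86 genes higher (0.479%), 16 of them on the list: the same 13 and Sik1, Npas4 and Nfil3. Over the 61 listed genes the log2 fold change (2 weeks minus 24 h) was above 0 for 44 and below 0 for 17, with a median of 0.28, against a median of -0.07 over all genes tested. Without library 10 these medians were 0.27 and -0.02. Of the 13, Egr2, Arc and Ccn1 rose most, with fitted folds of 3.45, 3.29 and 3.04. A covariate for a high or low state of 3 other transcripts, described further on, left 0 genes called by edgeR (426 at an unadjusted p under 0.05). The fold changes of the 13 genes then ran from 0.35 to 1.33, against 0.69 to 1.79 without it. Within a treatment and sex, this state varied only among the 24 h males (3 high, 2 low), so the covariate rests on those 5 libraries. Without 24 h libraries 22, 23 and 24, the high-state males, 9 genes were called, 7 of them among the 13.

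**Figure D1:**
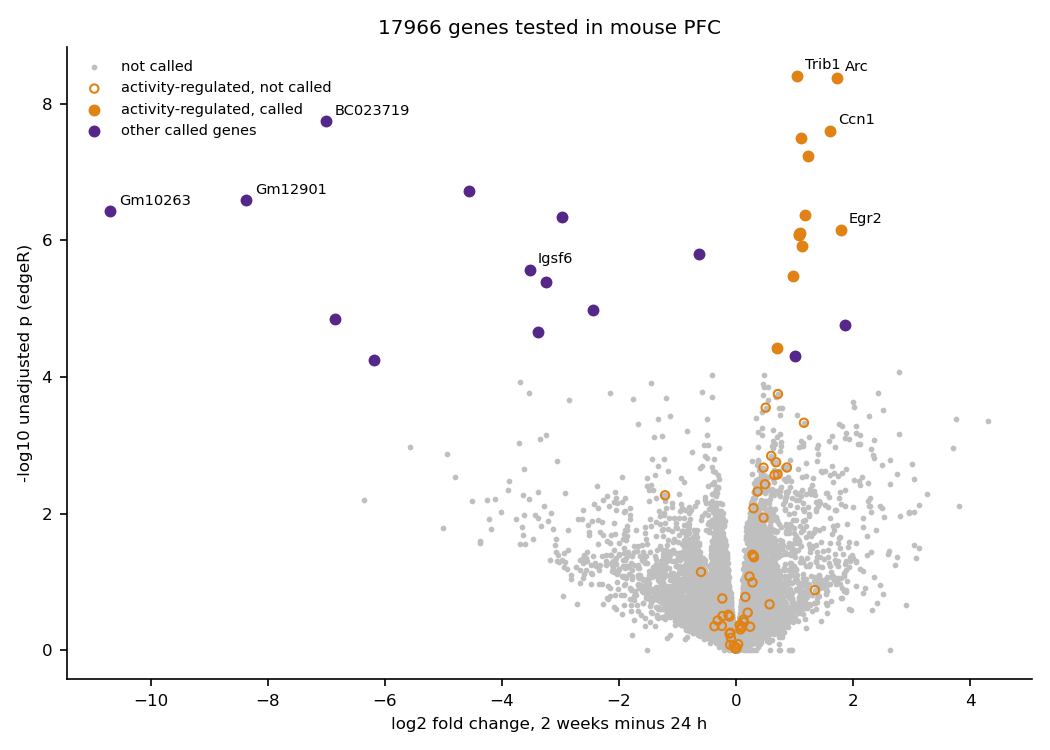
Log2 fold change (2 weeks minus 24 h, horizontal axis) against the negative log10 of edgeR's unadjusted p (vertical axis) for the 17966 genes tested in PFC. Filled orange points are the 13 called activity-regulated genes, open orange points the listed genes that were not called, and purple points the other called genes, 12 of which lie to the left of 0.

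Among the AP-1 factors, which pair up to bind DNA, 3 of 10 genes were called higher and none lower. Over the 10, estimates ran from -0.37 to 1.35 with 3 below 0, and both ends belonged to members that were not called. Fos (chr12:85473890-85477273, GRCm38) encodes the AP-1 subunit most often used as an activity marker. Its level ran from 3.40 log2 CPM through a median of 5.27 to 5.94 at 24 h, and from 6.07 through 6.41 to 6.59 at 2 weeks. All 2-week libraries lay above all 24 h libraries, and the log2 fold change was 1.10 ± 0.17 (SE, n = 7 and 9, edgeR adjusted p = 0.00101). Junb, a Fos partner, had levels of 5.21, 6.25 and 7.33 (lowest, median, highest) at 24 h and of 7.17, 7.54 and 8.02 at 2 weeks. The groups overlapped through the highest 24 h library, a female, and the fold change was 1.12 ± 0.18 (edgeR adjusted p = 0.00135). Fosl2, a longer-lived Fos relative, had the smallest change of the 13 genes, 0.69 ± 0.14 (edgeR adjusted p = 0.0267), and without library 10 it was no longer called (0.54, edgeR adjusted p = 0.113). The other 7 members were not called by edgeR: Fosb had a fold change of 0.71 ± 0.21, while Jun (0.10 ± 0.13) and Jund (-0.13 ± 0.12) lay near 0.

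The Egr and Nr4a families each had 1 called member. Egr2 (chr10:67535475-67542188) encodes a zinc finger factor induced with neuronal firing. It was at 1.42, 3.65 and 4.66 log2 CPM at 24 h and at 4.92, 5.34 and 6.06 at 2 weeks, with no overlap between the groups. Its fold change of 1.79 ± 0.28 was the largest among the 13 genes (edgeR adjusted p = 0.00101). Library 10 was its highest 2-week library, and without it the fold change was 1.61, level with that of Arc (1.61). Egr1, a widely used marker of firing, did not overlap between the groups either, at up to 9.62 log2 CPM at 24 h and at least 9.74 at 2 weeks, but its fold change of 0.68 ± 0.20 was not called (edgeR adjusted p = 0.235). Egr3 was at -0.04 ± 0.22. Nr4a1, an orphan nuclear receptor, was at 6.00, 7.09 and 7.96 at 24 h and at 7.87, 8.27 and 8.49 at 2 weeks. The overlap was slight, and the fold change was 1.07 ± 0.17 (edgeR adjusted p = 0.00101). Nr4a2 (0.04 ± 0.14) and Nr4a3 (0.30 ± 0.14) were not called.

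Of 12 other early transcription factors and co-regulators, 4 rose. Btg2, an antiproliferative co-regulator, had 24 h levels of 3.47, 3.86 and 4.50 and 2-week levels of 4.47, 4.85 and 5.76, with a fold change of 1.10 ± 0.15 (edgeR adjusted p = 0.000112). Ier2, a small nuclear early gene product, was at 2.82, 3.45 and 5.14 at 24 h and at 4.70, 5.07 and 5.48 at 2 weeks (1.18 ± 0.18, edgeR adjusted p = 0.00074). In both genes the overlap came from the upper end of the 24 h libraries. Klf4 and Klf2 encode Krüppel-like factors that neurons and the cells lining blood vessels both use. Klf4 was at 2.99, 3.43 and 3.85 at 24 h and at 4.15, 4.40 and 5.13 at 2 weeks, without overlap (1.08 ± 0.17, edgeR adjusted p = 0.00101). Klf2 was at 3.39, 4.07 and 4.49 and at 4.46, 4.94 and 5.74 (0.97 ± 0.17, edgeR adjusted p = 0.00313). Library 10 was the highest 2-week library for both Krüppel-like genes, and without it their fold changes were 0.90 and 0.74, still called. It was also the highest for Egr2, Junb, Fosl2, Btg2, Dusp1 and Ier2. Without it Junb was at 0.97, Btg2 at 0.89, Dusp1 at 1.10 and Ier2 at 1.05, all still called. Arc (1.61), Ccn1 (1.51), Nr4a1 (1.02) and Trib1 (0.997) were also lower without it, while Fos was higher (1.14). Over 15 endothelial and mural cell markers, 0 were called and the median fold change was 0.03; their summed level was 437 to 652 CPM at 24 h and 402 to 720 at 2 weeks, and its part in the Krüppel-like values was not tested. Npas4, a factor induced by calcium entry in neurons, had a fold change of 1.16 ± 0.29 that edgeR did not call (adjusted p = 0.131) and DESeq2 did (adjusted p = 0.00995), and its estimate was 0.09 in females and 2.23 in males.

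**Figure D2:**
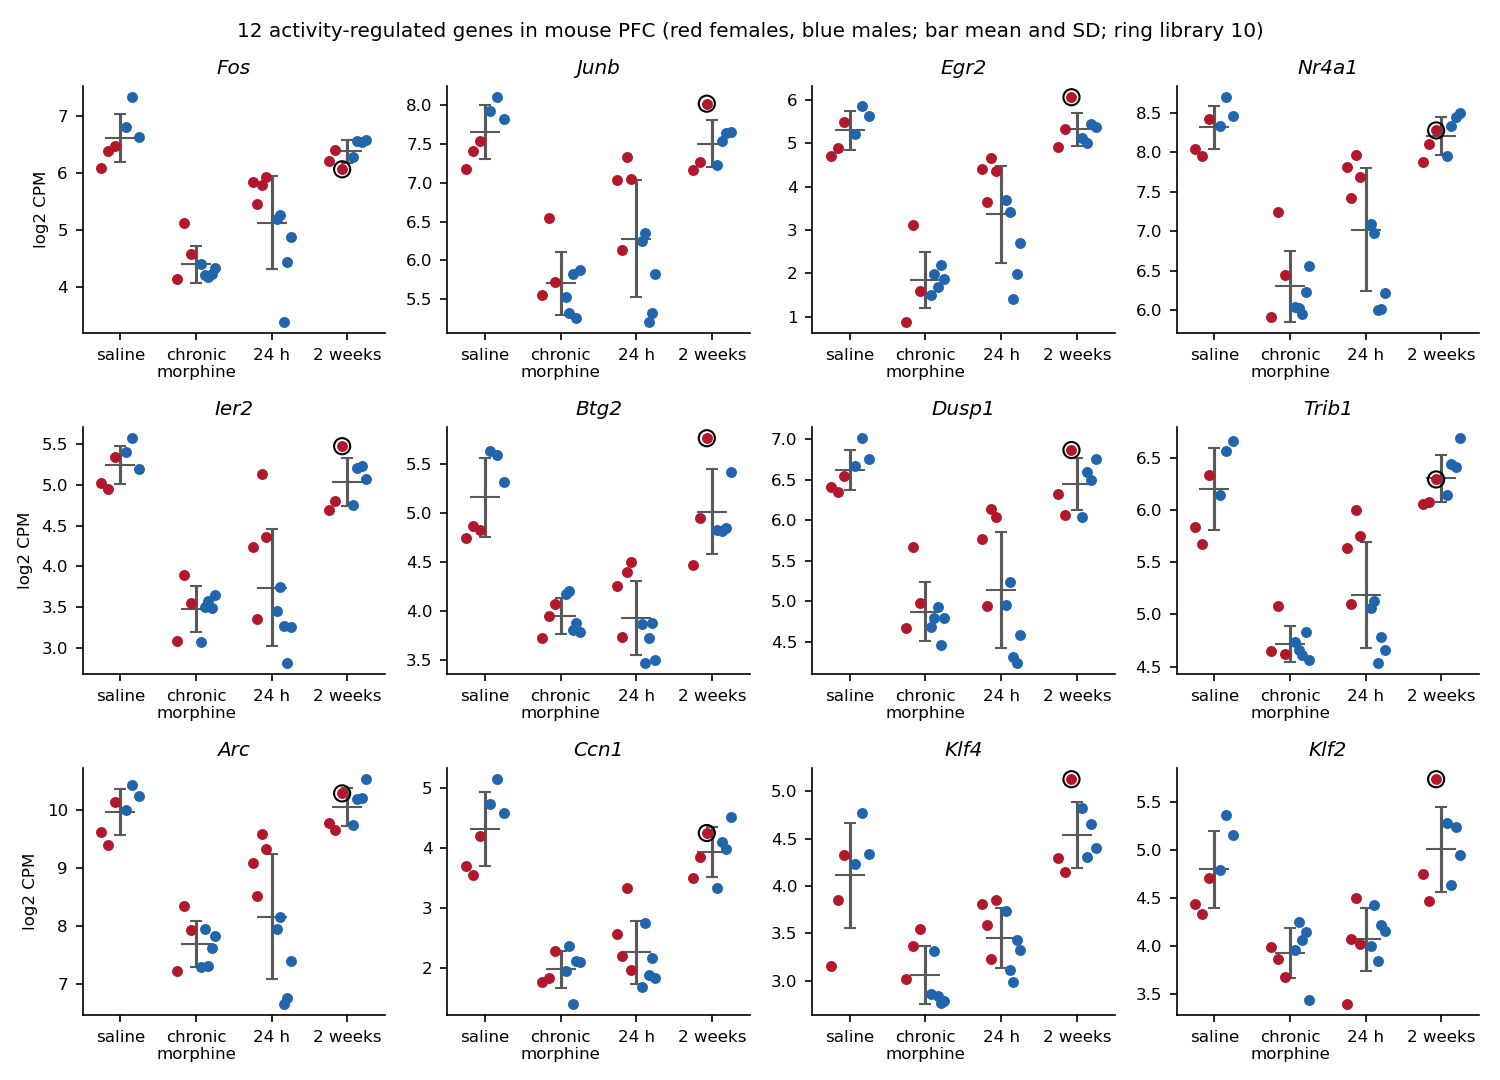
Level (log2 CPM, vertical axis) of 12 of the 13 called activity-regulated genes in each PFC library, by stage (horizontal axis). Points are libraries (red females, blue males), bars the mean and SD, and the ring marks library 10. The 24 h libraries spread widely, with the males lowest for Fos, Nr4a1 and Arc, and the 2-week libraries overlap the saline libraries.

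Feedback regulators of early signalling held 2 called genes out of 17. Dusp1 (chr17:26505590-26562128), a phosphatase that switches off MAP kinases, was at 4.24, 4.95 and 6.14 log2 CPM at 24 h and at 6.04, 6.49 and 6.87 at 2 weeks. It rose by 1.22 ± 0.17 (edgeR adjusted p = 0.000176); other annotated genes overlap it, and reads they share cannot be told apart without strand. Trib1, a pseudokinase that steers proteins to degradation, was at 4.54, 5.10 and 6.00 at 24 h and at 6.06, 6.29 and 6.69 at 2 weeks. Its groups did not overlap and it had the smallest SE of the 13 genes, with a fold change of 1.03 ± 0.13 (edgeR adjusted p = 3.75e-05). Of the 15 that edgeR did not call, Dusp2, another MAP kinase phosphatase, had the lowest value (-1.21 ± 0.40), and it was weakly expressed, at a mean of 0.49 log2 CPM at 24 h. Sik1, a kinase induced by cAMP, was at 0.71 ± 0.17 (edgeR adjusted p = 0.0797; DESeq2 adjusted p = 0.00769). Without library 10 Sik1 was called (0.81 ± 0.16, edgeR adjusted p = 0.0176), and so was Tiparp, an ADP-ribosyltransferase (0.63 ± 0.13, edgeR adjusted p = 0.0221).

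Of 14 synaptic and secreted effectors, 2 rose. Arc (chr15:74669083-74672570), whose protein drives the removal of AMPA receptors from synapses, was at 6.66, 8.16 and 9.58 at 24 h and at 9.65, 10.18 and 10.53 at 2 weeks. The highest 24 h library was thus just under the lowest 2-week library, and the fold change was 1.72 ± 0.20 (edgeR adjusted p = 3.75e-05). Ccn1, a secreted matrix protein, was at 1.70, 2.17 and 3.33 at 24 h and at 3.34, 3.98 and 4.51 at 2 weeks. It too had no overlap, with a fold change of 1.60 ± 0.21 (edgeR adjusted p = 0.000111). The remaining 12 included slower activity-regulated genes near 0, such as Homer1 (-0.11 ± 0.19), Vgf (-0.02 ± 0.15), Nptx2 (-0.01 ± 0.17) and Nrn1 (0.01 ± 0.10). Bdnf, the neurotrophin, was at 0.30 ± 0.10 and was not called (edgeR adjusted p = 0.379). Of all genes tested, 11 had every 2-week library above every 24 h library (0.0612%), and 6 of these were among the 13 called genes.

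**Figure D3:**
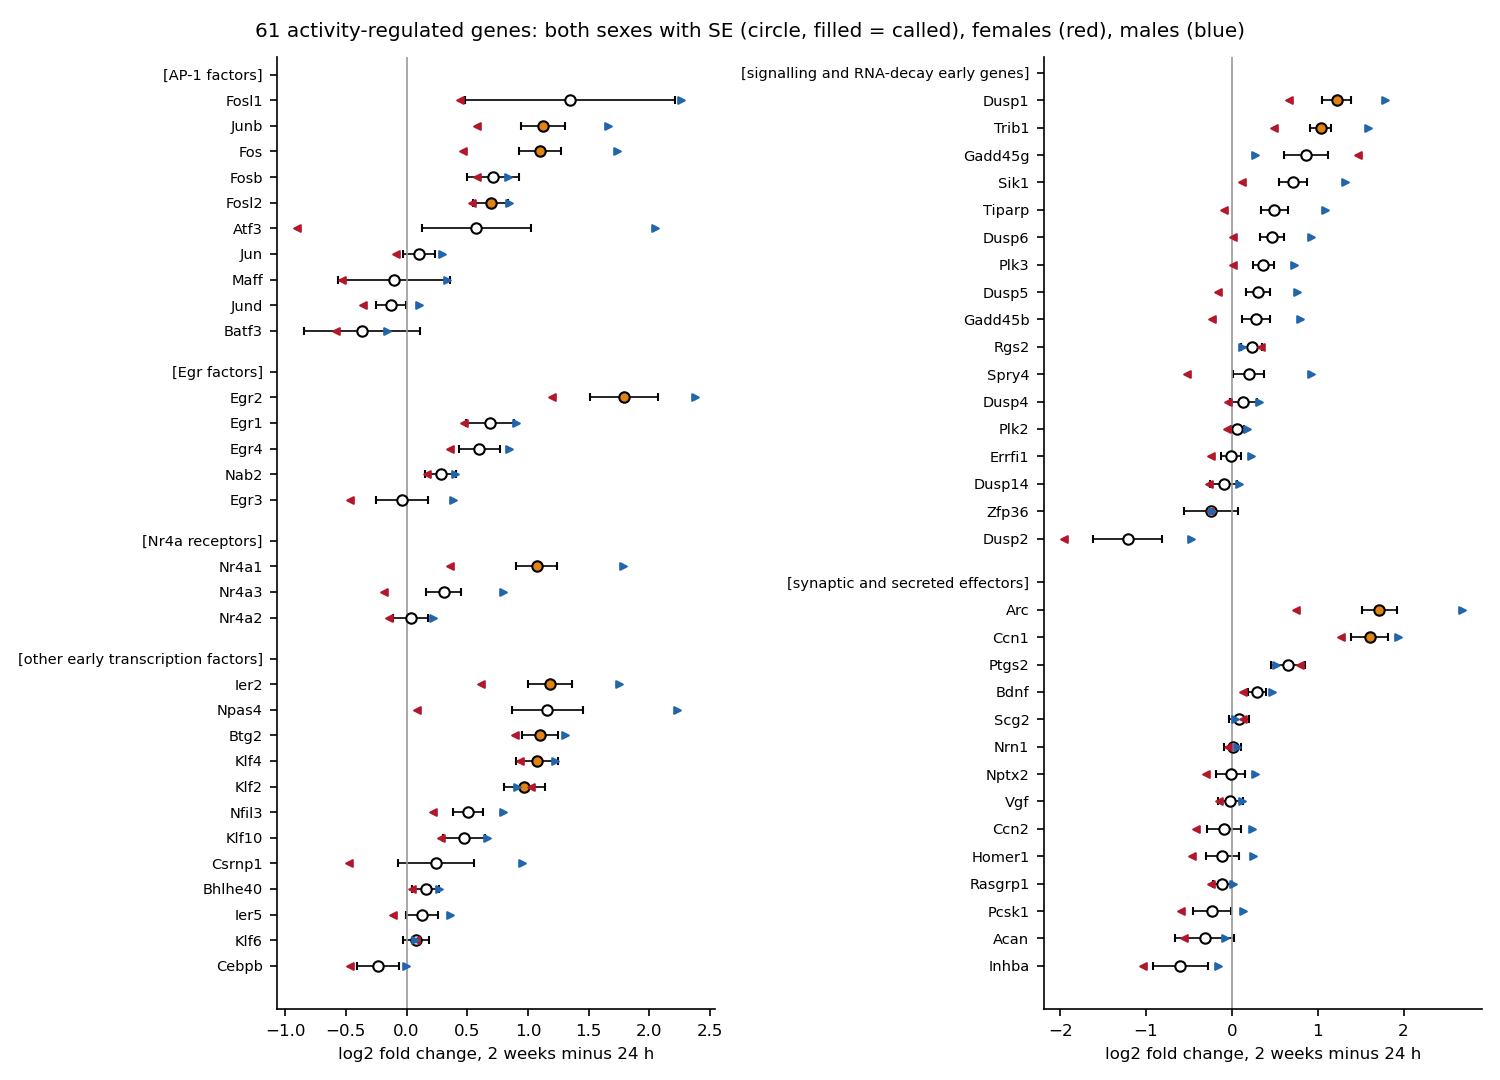
Log2 fold change (2 weeks minus 24 h, horizontal axis) of the 61 activity-regulated genes, grouped by role. Circles with SE bars are the fit over both sexes, filled where called; red triangles are females and blue triangles males. Called genes lie between 0.69 and 1.79, and the male value exceeds the female value in 12 of the 13.

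Levels in saline and chronic morphine libraries place these values, with the caution that all contrasts with saline share the same 6 saline libraries, and the 24 h and 2-week groups enter both kinds of contrast. At 24 h the 13 genes were 0.48 to 1.98 below saline on the log2 scale, and 10 of them were called lower; edgeR called 14 of all 17966 genes at 24 h (0.0779%), 13 of them lower (0.0724%). At 2 weeks their differences from saline ran from -0.38 to 0.41 and 0 were called by edgeR, the smallest adjusted p being 0.949, but this contrast called only 1 gene of all those tested (0.00557%). Of the 61 listed genes 5 had an unadjusted edgeR p under 0.05, a larger share than over all genes (902 of 17966, 5.02%). Under chronic morphine all 13 were called lower than saline, by values between -0.68 and -3.35 (56 of all genes were, 0.312%). For Fos the means were 6.62 ± 0.42 (SD, n = 6) in saline, 4.41 ± 0.33 (n = 8) under chronic morphine, 5.14 ± 0.81 (n = 9) at 24 h and 6.38 ± 0.20 (n = 7) at 2 weeks. The means of Arc were 9.97, 7.69, 8.16 and 10.06 log2 CPM in the same order of groups. Both genes were lowest under chronic morphine, and both spread most at 24 h, where the SD of Arc was 1.07 against 0.33 at 2 weeks.

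The spread at 24 h followed sex and library. For Arc, the 24 h females lay between 8.53 and 9.58, the males 16 and 17 at 7.96 and 8.16, and the males 22, 23 and 24 between 6.66 and 7.40. For Fos, all 24 h males (up to 5.27) were below all 24 h females (at least 5.46), and the same held for Arc and Nr4a1 but not for the other 10 called genes (0.79% of all genes did so). The fold change was larger in males than in females for 12 of the 13 genes: male estimates ran from 0.85 to 2.68 and female estimates from 0.36 to 1.27. All genes tested leaned the same way, with a median male minus female difference of 0.12. In fits of each sex alone, the median fold change over all genes was -0.12 in females, library 10 included, and -0.002 in males. In a fit of males alone 20 listed genes were called higher, including all 13, of 25 called higher among 17469 genes (0.143%), and in a fit of females alone none were (6 genes called by edgeR in all, 0.0356%, and 1106 at an unadjusted p under 0.05). Tested directly, the difference between the sexes was not called for any of the 13 (edgeR adjusted p from 0.354 to 0.94), and the female estimates were all above 0. Over all genes the sex difference called 1 gene, Igsf6 (0.00557%), with 1493 at an unadjusted p under 0.05; DESeq2 called 62, and edgeR without library 10 called 0, with 985 at an unadjusted p under 0.05.

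A second pattern ran through the same libraries. A group of mostly pseudogene and antisense transcripts was either clearly present or near 0 in each library. By the mean of BC023719, Gm12901 and Gm10263, all 7 of the 2-week libraries were in the low state, and so were 24 h libraries 16 and 17, while the other 7 of the 24 h libraries and all 8 chronic libraries were in the high state; saline had 3 of each. In females, every 24 h library was high and every 2-week library low, so that state and time cannot be told apart. Males allow a view within the low state, at 2 libraries against 4. In all 13 genes both low-state 24 h males lay below all 4 of the 2-week males, as 6.81% of all genes did, and the difference of means ran from 0.76 (Fosl2) to 2.11 (Arc) with a median of 1.31. This is a description only: the same 6 libraries entered the fit that picked the 13 genes, and they were set apart after their values were seen, so nothing is read from the count beside that share. For Trib1, for example, males 16 and 17 were at 5.07 and 5.12, the high-state males at 4.54 to 4.78 and the 2-week males at 6.14 to 6.69.

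**Figure D4:**
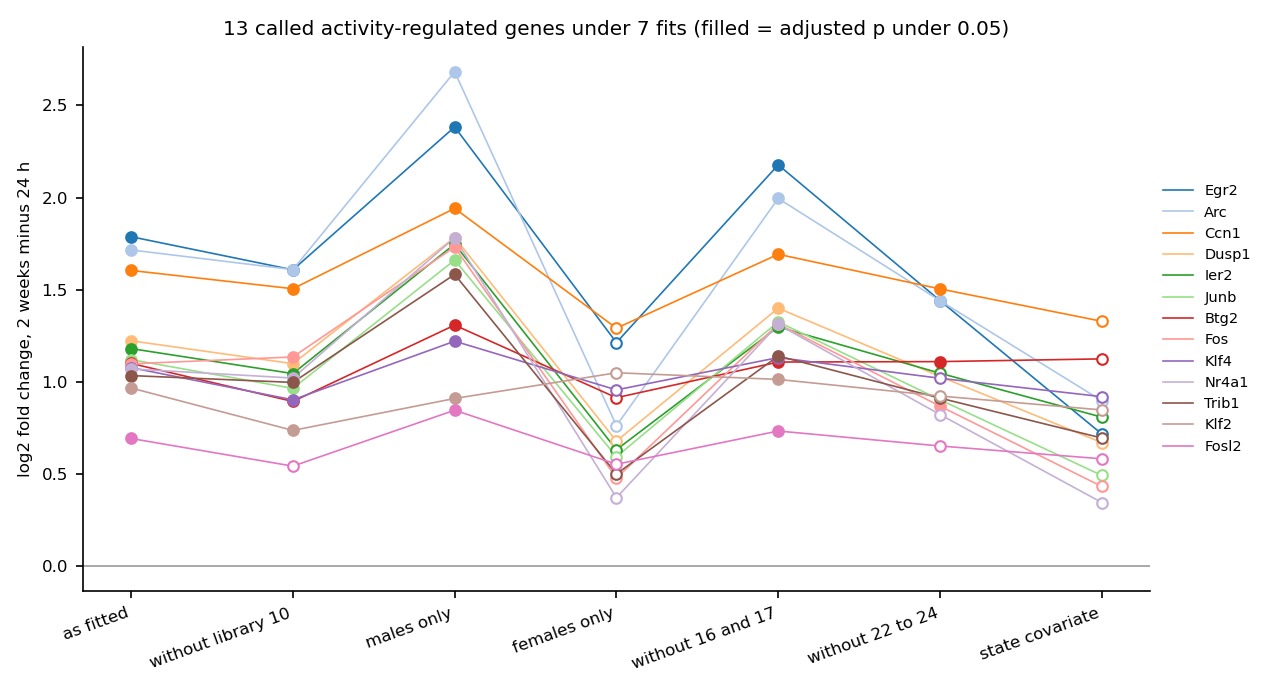
Log2 fold change (2 weeks minus 24 h, vertical axis) of the 13 called activity-regulated genes under 7 fits (horizontal axis); filled points have an edgeR adjusted p under 0.05. All values stay above 0, from 0.35 to 2.68. None is called in females alone or with the state covariate, and 7 are called without libraries 22 to 24.

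The 12 genes lower at 2 weeks were mostly not ordinary coding genes. By annotation 7 were pseudogenes, 2 were antisense RNAs and 3 were protein coding. Of all genes tested, 5 had every 2-week library below every 24 h library (0.0278%), and none of the 12 was among them. Gm10263 (chr13:73317844-73318143, plus strand) had between 190 and 512 counts in 7 of the 24 h libraries, 0 in numbers 16 and 17, and 0 in all 7 of the 2-week libraries. With a floor of 3 counts over the 2-week group, its pooled level was at least 437-fold lower at 2 weeks (edgeR adjusted p = 0.00074). Gm12901 (chromosome 4), Gm18733 and Gm10499 (both chromosome 17) were likewise at 0 in all 7, and at least 89.4-fold, 29.4-fold and 18.5-fold lower. BC023719, an antisense RNA on chromosome 17, had 164 to 288 counts in the same 7 of the 24 h libraries and at most 5 in any 2-week library. Of the 27 called genes, 5 lie on chromosome 17, and of these BC023719, A930015D03Rik, Gm18733 and Gm10499 lie between positions 35278176 and 36145923, within the major histocompatibility region.

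Several of these transcripts are near copies of abundant genes, which bears on how reads were assigned. Gm10263 differs from its nearest gene, Rps28 (a small ribosomal subunit protein), at 3 of 300 aligned bases, and BC002163 differs from Ndufs5 (a subunit of respiratory complex I) at 2 of 319. The stretches below show single bases that tell copy and gene apart; a read that covers no differing base matches both. They are 25 bases of the GENCODE M21 transcripts with the differing base in capitals, on the plus strand of GRCm38 for the copies (chr13:73318004-73318028, chr16:42955699-42955723 and chr16:42955723-42955747). Substitutions are written with the nearest gene's base first, counted from the 5′ end of the copy's transcript, and are G173A for Gm10263, and T81C and A105G for BC002163.
Gm10263: cgagagggtgacAtgctcaccctat
Rps28: cgagagggtgacGtgctcaccctat
BC002163 at T81C: agaacagccctaCaagaacgccgct
Ndufs5 at T81C: agaacagccctaTaagaacgccgct
BC002163 at A105G: tcggtgccacgcGtttgaaaaagag
Ndufs5 at A105G: tcggtgccacgcAtttgaaaaagag
The nearest genes themselves did not move with their copies: the fold change was 0.02 ± 0.21 for Rps28 and 0.22 ± 0.19 for Ndufs5, neither called. Gm10260, annotated as coding, matches Rps18 at 99.08% of 545 bases and had 224 to 828 counts in the 7 high-state 24 h libraries against at most 22 at 2 weeks (-4.56 ± 0.66, edgeR adjusted p = 0.000485), while Rps18 was at 0.03 ± 0.25. BC002163 itself was at -2.97 ± 0.46 (edgeR adjusted p = 0.00074). Counts of such copies are uncertain. The deposited table lists reads aligned to several places in a row of their own (11.6 to 16.7%), outside the genes, and how many mismatches an alignment could carry is not given in the sources used here.

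**Figure D5:**
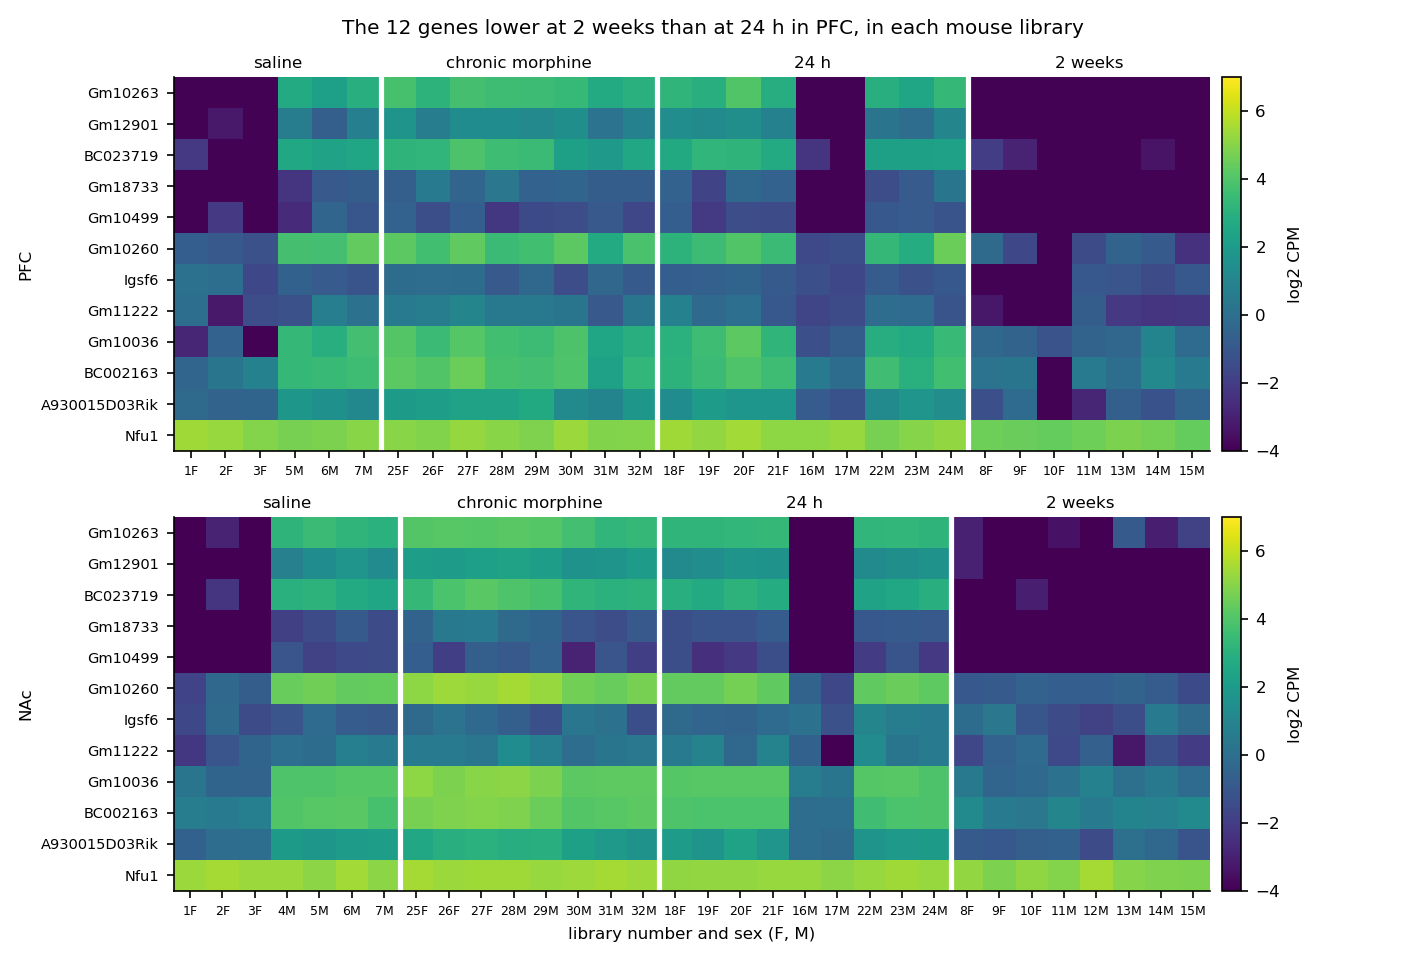
Level (colour, log2 CPM) of the 12 genes called lower at 2 weeks in PFC (rows) in each PFC library (upper panel) and each NAc library (lower panel), ordered by stage, sex and library number (columns). For most rows, libraries 16 and 17 and the saline females look like the 2-week libraries in both regions; Nfu1 and Igsf6 differ from that pattern.

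A pair of coding genes fell outside that pattern. Nfu1, which inserts iron-sulfur clusters into mitochondrial enzymes, was at 4.75, 5.21 and 5.48 log2 CPM at 24 h and at 4.41, 4.59 and 4.83 at 2 weeks. The groups overlapped little, and the change of -0.64 ± 0.11 (edgeR adjusted p = 0.00165) had the same sign in both sexes, at -0.83 in females and -0.45 in males. Fitted alone, neither sex gave an edgeR call for Nfu1. Libraries 16 and 17 had 1019 and 1205 counts, among the other 24 h libraries. Igsf6, an immunoglobulin superfamily gene of myeloid cells, had 8 to 21 counts in the 24 h libraries, 10 to 15 in the 2-week males and 0 in all 3 of the 2-week females. In females it was at least 11.6-fold lower at 2 weeks, while in males alone the fold change was 0.07. Of 11 microglia markers, 0 were called and their median was 0.01. Among the genes higher at 2 weeks, Dll4, a Notch ligand of vessel cells, was at 0.39, 1.06 and 1.62 at 24 h and at 1.55, 1.92 and 2.51 at 2 weeks (1.0 ± 0.21, edgeR adjusted p = 0.0341). The antisense RNA 1500015A07Rik was at 0.47, 1.34 and 1.90 and at 1.23, 3.04 and 4.21 (1.87 ± 0.36, edgeR adjusted p = 0.0134). Its 2-week libraries fell apart: numbers 9, 10, 13 and 14 were at 3.04 to 4.21, and numbers 8, 11 and 15, at 1.23 to 1.43, lay within the 24 h range. In the nucleus accumbens the libraries numbered 9, 10, 13 and 14 were also the high ones of that group, at 3.73 to 4.22.

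Without library 10, edgeR called 40 genes, 26 of the 27 among them and 14 more, of which 8 were higher and 6 lower at 2 weeks. Pycrl, which makes proline, had the smallest p of the 14: it was at 3.10, 3.63 and 4.10 log2 CPM at 24 h and at 1.66, 2.16 and 3.10 in the other 6 of the 2-week libraries (-1.11 ± 0.20, edgeR adjusted p = 0.00479). Apold1, an early gene of vessel-lining cells, was at 1.47, 2.14 and 2.26 and at 2.44, 2.88 and 3.25, without overlap (0.88 ± 0.16, edgeR adjusted p = 0.00717). H2-D1, a class I histocompatibility gene near the chromosome 17 transcripts above, was lower (-0.64 ± 0.12, edgeR adjusted p = 0.0118). In saline it had 1202 to 1860 counts in the low-state females and 2131 to 3099 in the high-state males, where state and sex cannot be told apart. The low-state 24 h libraries 16 and 17 had 2352 and 1529, and the high-state 24 h libraries 1977 to 3575. The largest rises were in Pyroxd2 (1.93 ± 0.39) and the pseudogene Gm5900 (1.94 ± 0.42), both weakly expressed at 24 h with medians of -0.18 and -0.07 log2 CPM. These genes were chosen for mention after their values were seen. With library 10 included, all 14 estimates had the same sign and edgeR adjusted p values of up to 0.652.

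The same contrast in the nucleus accumbens (NAc), from 8 libraries at 2 weeks and 9 at 24 h, called 51 of 18382 genes (0.277%). Of the 13 PFC genes, 10 were higher at 2 weeks in NAc by estimate, and 1 was called there: Fos, at 2.91, 3.37 and 4.28 log2 CPM at 24 h and at 4.08, 4.35 and 4.72 at 2 weeks (0.96, edgeR adjusted p = 0.00904). Over the 61 listed genes the NAc median was 0.10, with 1 gene called in each direction. The difference between the regions was tested itself over 19266 genes and was called for 3 (0.0156%), all of them with a smaller fold change in NAc and all on the activity-regulated list. Trib1 differed by -1.23 ± 0.18 (edgeR adjusted p = 0.000154), since in NAc it was at 2.96, 3.45 and 3.96 at 24 h and at 2.81, 3.24 and 3.36 at 2 weeks. Klf4 differed by -1.39 ± 0.23 (edgeR adjusted p = 0.00194) and Ccn1 by -1.42 ± 0.25 (edgeR adjusted p = 0.00522). With the library number as a block and number 10 left out, Klf4 was no longer called (-1.19 ± 0.24, edgeR adjusted p = 0.119). The remaining 10 genes were also smaller in NAc by estimate, and edgeR called the difference for none of them. The 13 genes were picked by their PFC values, and the same PFC libraries enter this difference. Smaller values in NAc are therefore favoured by the choice, and nothing is read from how many were smaller. DESeq2, which called 21 genes in all (0.109%), called the region difference for Btg2 (-0.82, adjusted p = 0.0266), Ier2 (-1.08, adjusted p = 0.0125) and Klf2 (-1.11, adjusted p = 0.00891) as well. Its 21 calls included the Y-linked genes Uty (-17.1), Kdm5d (16.6) and Ddx3y (-10.1), which are not read here. Of the 12 genes lower in PFC, 9 were also called lower in NAc (32 of all genes tested there were, 0.174%). The high or low state was the same in both regions for all 30 library numbers with a library in each. Only among the 5 numbers of 24 h males did it vary within a treatment and sex, so the other matches go with the group labels.

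None of the other 11 functional lists held a gene called by edgeR, and 21 of their 207 entries tested had an unadjusted p under 0.05 (10.1%, against 8.5% of all genes); DESeq2 called 1 of them, Hspa1a. Of all 17966 genes tested, 11044 were lower at 2 weeks by estimate, so most lists lean that way. The lean was smaller without library 10, where the median over all genes was -0.02 instead of -0.07. Of 19 clock genes, 15 were lower by estimate with a median of -0.12. The smallest p values among them belonged to Tef (-0.18 ± 0.07) and Dbp (-0.31 ± 0.12). The 22 opioid system genes had a median of -0.07; Gnai3 was at 0.24 ± 0.12, Gnai2 at 0.20 ± 0.10 and Penk, the enkephalin precursor, at -0.31 ± 0.17. Of 27 cAMP signalling genes 20 were lower by estimate, led by Pde4a (-0.27 ± 0.09) and Crtc1 (-0.20 ± 0.10). These fold changes, like those of the other single genes here, include library 10, which held 5182601 counts in genes. For that depth Crtc1 was low in it (794 counts, against 6242 to 8879 in the other 2-week libraries). Gnai2 was high in it (2252 counts, against 5996 to 10110). Medians were -0.09 for 20 glucocorticoid-induced genes, -0.04 for 13 stress peptide genes, -0.06 for 23 glutamate receptor genes and -0.09 for 14 GABA receptor genes, all close to the -0.07 of all genes. Gabra2, a GABA-A receptor subunit, was at 0.75 ± 0.25 and Hspa1a, an inducible Hsp70 gene, at 1.10 ± 0.30 (edgeR adjusted p = 0.324 and 0.17), neither called. The Hspa1a value includes library 10, with 142 of its 5182601 counts. The other 2-week females, 8 and 9, had 180 of 26637146 and 192 of 29433089, and the 2-week males had 282 to 432 counts.

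Among these functional lists, the medians furthest from that of all genes were in 2. Of 13 mitochondrially encoded genes, 12 were higher by estimate with a median of 0.41, such as mt-Cytb (0.41 ± 0.17) and mt-Co1 (0.42 ± 0.18). Mitochondrial genes took 2.29 to 4.44% of gene counts at 24 h and 2.42 to 6.28% at 2 weeks, so the groups overlapped. The 6.28% was that of library 10, which these fold changes include, and the other 2-week libraries reached 5.33%. Of 19 interferon response genes, 15 were lower by estimate (11044 of all 17966 genes were), with a median of -0.24. Among them H2-D1 was at -0.49 ± 0.13 and H2-K1 at 0.49 ± 0.17. The 17 sterol synthesis genes had a median of 0.0037, with Nsdhl at 0.26 ± 0.15 and Fdft1 at 0.21 ± 0.13, and the 20 chaperones a median of -0.02. Without library 10, Nsdhl was at -0.02 and Fdft1 at -0.01. Of the 11 marker lists for cell types, none held a gene called by edgeR, and 7 of 113 markers tested had an unadjusted p under 0.05 (6.19%). Their medians ran from -0.25 (choroid plexus and ependyma) to 0.11 (astrocytes). Cortical glutamatergic markers had a median of -0.14 and summed to 2595 to 3454 CPM at 24 h and 2202 to 2995 at 2 weeks, so the 2-week libraries reached lower; the part of this in the early gene values was not tested. Striatal projection neuron markers summed to 188 to 278 and 205 to 269 CPM, with Isl1 at 0 in both groups.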

How the data were processed

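The authors deposited 1 table of raw counts per mouse gene, with 1 column per library; the submitters' processing notes list GRCm38, STAR, HISAT2 and RSEM among builds and tools without saying which made it, and whether counting used strand is not given in the sources used here. Libraries were grouped by their treatment and sex labels. Rows naming no gene were kept out of library sizes and tests: in the 16 libraries, counts outside genes made up 5.02 to 8.30% and reads aligned to several places 11.6 to 16.7%. Symbols came from GENCODE M21 for 45229 of 46078 identifiers. edgeR 4.0.16 (R 4.3.3) was fitted to the 30 PFC libraries with TMM scaling, filterByExpr and a mean for each treatment and sex; the contrast gave the sexes equal weight. Log2 CPM used a prior count of 2. Copies were found with BLAST+ 2.17.0. Code was tested on simulated data. Members and lists were chosen with earlier results of these data known. One gene of the sterol list is not reported here. Named genes were the called ones, up to 12 per direction, and in lists without a call the 2 with the smallest p; weakly expressed genes and those in the high or low state were named after their values were seen. Alternatives were DESeq2 1.42.0 and limma 3.58.1 voom with sample weights, other scaling and filters, 2 surrogate variables (sva 3.50.0), each sex, and libraries left out.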

Additional observations from a re-analysis of the deposited data

Results flagged for a closer look

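In 2-week library 10, 5182601 counts fell in genes (group median 27549869), 10563 genes had a count (median 19434) and 21.1% of counts were listed as not aligned (median 0.649%), each far below or above the other 6 libraries. In the same library BC002163 was at -3.92 log2 CPM, the value of a count of 0, against a group median of 0.27. At 24 h, library 19 had the highest mitochondrial share, 4.44% of gene counts against a median of 3.00%. These were 5 of the 64 sets of libraries looked at, and chance alone sets a library apart in about 1 in 20.

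For Igsf6 the 2 weeks minus 24 h difference was 7.19 higher in males than in females on the log2 scale (edgeR adjusted p = 0.0316). The size depends on the prior count, since all 3 of the 2-week females were at 0. Without library 10, which is 1 of these females, the sex difference of Igsf6 was no longer called (7.23, edgeR adjusted p = 0.0861). The difference between NAc and PFC was -1.23 for Trib1, -1.39 for Klf4 and -1.42 for Ccn1, with PFC the higher in each; for Klf4 the call was lost with the library number as a block and number 10 left out (edgeR adjusted p = 0.119).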

How the results depend on the processing

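The 13 called activity-regulated genes stayed above 0 in all 32 alternative fits, and 359 of the 416 gene and fit pairs kept the call. Against 27 called genes (15 higher, 12 lower), DESeq2 gave 126 (86 and 40), DESeq2 without library 10 gave 71 (34 and 37), the 2 groups alone 16 (3 lower), males alone 25 higher and 1 lower, females alone 6 (2 and 4), the state covariate 0 with or without library 10, dropping 24 h libraries 22 to 24 gave 9 (7 and 2), and dropping 16 and 17 gave 20 lower. Leaving out each library in turn gave 24 to 110 called genes (13 to 80 higher, 11 to 30 lower). The top came without 2-week female 8 (91; 74 higher) or 9 (110; 80 higher, 30 lower), which leave library 10 as 1 of 2 females; without 24 h library 17, 19 were lower. The activity-regulated list, with 13 called, had 16 with DESeq2 or without libraries 16 and 17, 15 with voom weights, 0 with the covariate and 7 without libraries 22 to 24. DESeq2 called 1 chaperone gene, and edgeR without library 10 called 1 interferon response gene lower. The sex difference gave 62 calls with DESeq2 and 0 without library 10. Against saline, calls were 75 under chronic morphine (175 with DESeq2, 165 without library 10), 14 at 24 h (46 and 28) and 1 at 2 weeks (12 with DESeq2). NAc gave 51, 135 with DESeq2 and 8 with the covariate. The region difference gave 3, and 21 with DESeq2.

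The covariate was built from 3 of the on/off transcripts, so for that group a lost call or turned sign says nothing about processing. Signs turned with the covariate, with and then without library 10, for Gm10260 (0.53, 0.64), Gm10036 (0.62, 0.69), BC002163 (0.00576, 0.157), Gm10499 (0.21, 0.21), Gm18733 (0.11, 0.11) and Gabbr1 (0.063, 0.0762). They turned with it and without library 10 for A930015D03Rik (0.0494), Crtc1 (0.0157) and H2-K1 (-0.12). In males alone they turned for Igsf6 (0.0678) and Tef (0.00258). Nsdhl was at -0.0443 with voom weights, -0.0155 with 2 surrogate variables and -0.0131 without library 10 with DESeq2; leaving out each library in turn it ran from -0.0217 to 0.385. Fdft1 was at -0.00381 without library 10 with DESeq2 and at -0.0811 with the covariate and no library 10; leaving out each library in turn it ran from -0.013 to 0.319. The cause was not tested. The state covariate, the dropped 16 and 17, 22 to 24 and 27 were chosen after seeing the data.

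Same-numbered PFC and NAc libraries were checked for pairing: deviations from the group means correlated at -0.004 to 0.24 over 30 pairs, with 10 over 0.1. The high or low state matched in all 30, but only the 5 numbers of 24 h males could show a match beyond treatment and sex. The labels do not say that a number marks 1 animal, so whether the libraries are paired is not settled, and the fit without the block was reported. With that number as a replicate block the region difference called 3 genes, and 4 without number 10: Ccn1, Trib1, Ccn2 and Ddx3y, with Klf4 lost (edgeR adjusted p = 0.119). Ddx3y is a Y-linked gene and the contrast gives the sexes equal weight, so its call is not read. Depth limits genes with few counts, Igsf6 among them, and above all library 10.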

Other observations

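Counts for 2 fluorescent reporters, EYFP and tdTomato, are also in the mouse table, although the strain label names no reporter. In PFC, EYFP took 20 to 107 counts in each 24 h library and 0 to 96 in the 2-week libraries, the 0 being in library 10, while tdTomato was at 0 in every library of both groups. The EYFP level was 0.78 to 3.75 CPM at 24 h and up to 2.88 CPM at 2 weeks, against 0.50 to 2.07 CPM in saline.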
